A study of Mus musculus with 2 samples.

Results

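The enzymes that turn arachidonate into leukotrienes and prostaglandins were examined as 5 genes, *Alox5*, *Alox5ap*, *Ltc4s*, *Ptgs1* and *Hpgds*, chosen by name from the 11691 genes of a single-cell count table. All 5 were in the table and were detected in both libraries. The cells came from explants of C57/BL6 mouse concepti at embryonic day 8.5 (5 to 7 somite pairs, Theiler stage 12), which had been split into intraembryonic tissue (Em-Ex) and yolk sac (YS-Ex). Both kinds of explant were grown for 9 to 10 days at the air-liquid interface with SCF, IL-3 and FLT3 ligand at 100 ng/ml each, and CD31+CD45+c-Kit+CD41- cells were then sorted from each. Each condition was captured as 1 droplet library of pooled explants, so that a difference between tissues and a difference between 2 captures cannot be told apart, and no test was run. SCF and IL-3 are also the cytokines with which mast cells are grown in culture, and most sorted cells carried mast cell transcripts.

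Arachidonate is cut from membrane phospholipids by phospholipases. 5-Lipoxygenase, the product of *Alox5*, oxidises it to leukotriene A4 with the help of the membrane protein FLAP (*Alox5ap*), and leukotriene C4 synthase (*Ltc4s*) joins glutathione to leukotriene A4 to make the first of the cysteinyl leukotrienes, which contract airway muscle and make vessels leak. On the other branch, cyclooxygenase-1 (*Ptgs1*) makes prostaglandin H2, and hematopoietic prostaglandin D synthase (*Hpgds*) converts that to prostaglandin D2, the main prostanoid of mast cells. *Cpa3* encodes the granule protease carboxypeptidase A3 and is used below as the measure of mast cell transcript content of a cell.

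The cell filter of the methods left 3071 Em-Ex cells with 42752370 unique molecular identifiers (UMIs, each standing for 1 captured transcript) and 2087 YS-Ex cells with 27031627 UMIs, with medians of 12341 and 11729 UMIs per cell. Levels are given as UMIs per 1000000 UMIs pooled over cells (CPM), and the 95% intervals in parentheses cover counting error only. In these libraries 35 barcodes occurred in both, among them those of 33 Em-Ex and 32 YS-Ex cells. Leaving those cells out left the 4 counts of members past a fold limit given below at the same values. The 2 libraries differed in makeup. *Cpa3* was below 1000 CPM in 564 Em-Ex cells (18.4%) and in 50 YS-Ex cells (2.40%).

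In the mouse genome (GRCm38), *Alox5* lies on the minus strand at chr6:116410077-116461178 and *Hpgds* on the same chromosome and strand at chr6:65117293-65144908. *Alox5ap* lies on the plus strand at chr5:149264767-149288153, *Ltc4s* on the minus strand at chr11:50236461-50238616 and *Ptgs1* on the plus strand at chr2:36230426-36252272. No exon of another gene overlapped theirs on the same strand. Genes on the opposite strand overlapped *Alox5ap*, *Ltc4s*, *Ptgs1* and *Hpgds*, and the strand setting of the counting is not given in the sources used here. RefSeq promoter windows (GRCm38.p6) were matched for 4 of the 5 genes. The 250 bases before the start site are shown for *Alox5*, which of the 5 had the highest correlation with *Cpa3* over the cells, for *Cpa3* itself (minus strand, chr3:20242182-20242431) and, from the prostaglandin branch, for *Ptgs1* (plus strand, chr2:36230176-36230425). The *Alox5* window is chr6:116461179-116461428 on the minus strand. Capitals mark GATAA, a core that GATA factors bind, and GAGGAA, a core that PU.1 binds.
Alox5: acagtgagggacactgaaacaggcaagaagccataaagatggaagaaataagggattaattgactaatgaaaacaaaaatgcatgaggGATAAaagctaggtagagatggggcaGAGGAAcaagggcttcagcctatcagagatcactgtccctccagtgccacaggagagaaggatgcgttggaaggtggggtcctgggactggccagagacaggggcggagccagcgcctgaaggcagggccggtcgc
Cpa3: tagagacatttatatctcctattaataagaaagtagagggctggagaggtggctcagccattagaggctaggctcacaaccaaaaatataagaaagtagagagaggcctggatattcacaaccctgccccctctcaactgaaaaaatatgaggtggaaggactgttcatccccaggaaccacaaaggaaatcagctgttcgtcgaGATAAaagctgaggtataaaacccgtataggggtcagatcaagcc
Ptgs1: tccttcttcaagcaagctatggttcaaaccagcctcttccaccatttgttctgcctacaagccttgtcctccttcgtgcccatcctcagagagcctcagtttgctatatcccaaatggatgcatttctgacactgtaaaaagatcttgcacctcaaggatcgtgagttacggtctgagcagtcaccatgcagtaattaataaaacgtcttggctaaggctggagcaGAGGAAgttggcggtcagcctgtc

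GATAA, searched on both strands, was found at -162 in the *Alox5* window and at -45 in that of *Cpa3*, counted from the start site, and in none of the *Ptgs1*, *Ltc4s* and *Hpgds* windows. GAGGAA was found at -136 in *Alox5*, at -24 in *Ptgs1* and at -49 in *Hpgds*, and CATGTG, an E-box that MITF binds, at -80 in *Hpgds*. These motifs are common. Of 32851 promoter windows, 22.6% held GATAA on either strand. For GAGGAA the share was 23.3%, and 12.3% of the same windows held CATGTG. The motifs were looked for with these windows in view, and a match is a description of letters, not of a bound site.

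The first comparison asked how the levels of the enzymes differed between the libraries. Over all cells, the leukotriene and prostaglandin enzymes were at similar levels in Em-Ex and YS-Ex. *Alox5* was at 139 CPM (136 to 143) in Em-Ex against 145 CPM (141 to 149.8) in YS-Ex, a ratio of 0.960 (0.922 to 0.999). Its partner *Alox5ap* was at 667 CPM (659.7 to 675) in Em-Ex against 536 CPM (527 to 545) in YS-Ex, a ratio of 1.25 (1.22 to 1.27). *Ltc4s* was sparse in both, at 13.8 CPM (12.7 to 14.9) in Em-Ex against 16.7 CPM (15.2 to 18.3) in YS-Ex, a ratio of 0.823 (0.726 to 0.932). Thus the 3 leukotriene enzymes did not share a direction, and the signs for *Alox5* and *Ltc4s* turned when every cell was thinned to 2000 UMIs (log2 ratios of 0.10 and 0.12).

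On the prostaglandin branch, *Ptgs1* was at 58.9 CPM (56.6 to 61.2) in Em-Ex against 44.7 CPM (42.2 to 47.3) in YS-Ex, a ratio of 1.32 (1.23 to 1.41). *Hpgds* was at 85.4 CPM (82.7 to 88.2) in Em-Ex against 94.0 CPM (90.4 to 97.7) in YS-Ex, a ratio of 0.908 (0.863 to 0.956). None of the 5 enzymes differed by 1.5-fold or more, while of 8825 genes with UMIs in both libraries and at least 5 CPM in 1 15.8% were higher in Em-Ex by that fold and 22.9% lower. The median log2 ratio was -0.06 over the 5 enzymes and -0.02 over all genes compared. For scale, *Cpa3* was at 8656 CPM in Em-Ex against 16367 CPM in YS-Ex.

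The share of cells with a UMI was compared as well. In Em-Ex, 93.4% of cells had a UMI of *Alox5ap*, 62.3% of *Alox5*, 50.9% of *Hpgds*, 44.1% of *Ptgs1* and 14.9% of *Ltc4s*. In YS-Ex the shares were 82.8%, 64.9%, 51.6%, 32.9% and 17.6% in the same order. After thinning each cell to 2000 UMIs, which left out no cell, the Em-Ex shares were 62.8%, 22.8%, 15.6%, 11.7% and 3.45%, and those in YS-Ex 53.5%, 22.9%, 18.2%, 9.82% and 3.45%. The lower YS-Ex shares for *Alox5ap* and *Ptgs1* were present before and after thinning. For *Ptgs1*, however, the thinned intervals overlapped (10.6 to 12.9 in Em-Ex and 8.58 to 11.2 in YS-Ex). *Alox5ap* also varied most from cell to cell in absolute terms. The per-cell level had a median of 562 CPM in Em-Ex, with 64.2 CPM at the 10th and 2088 CPM at the 90th percentile, and a median of 399 CPM in YS-Ex, with 0 and 1833 CPM.

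**Figure D1:**
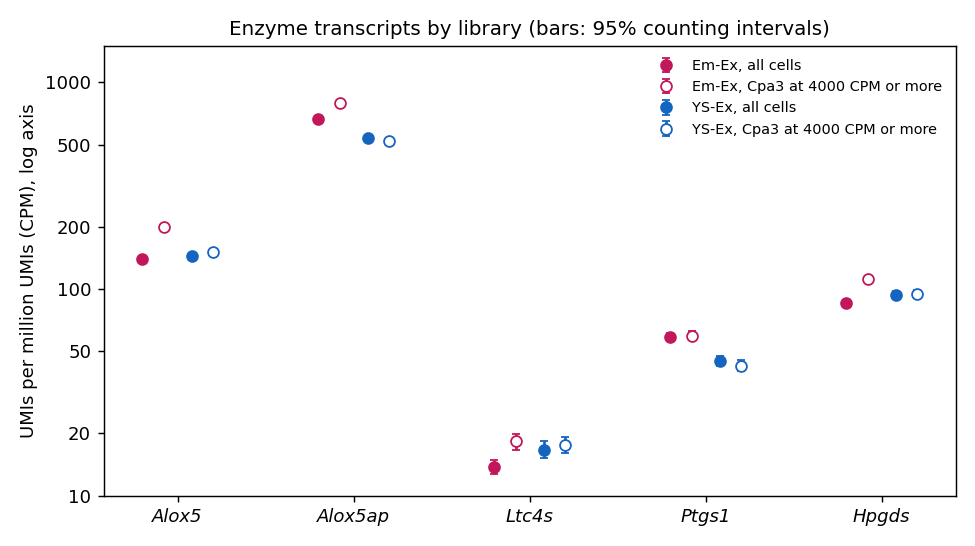
Pooled level of each enzyme (CPM, log axis) in Em-Ex (magenta) and YS-Ex (blue), over all cells (filled) and over cells with *Cpa3* at 4000 CPM or more (open), with 95% counting intervals. The filled points of *Alox5* lie at 139 and 145 CPM, whereas the open points lie at 199 and 150.4 CPM.

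Because the libraries held different shares of cells with low *Cpa3*, the comparison was repeated inside the range of 4000 CPM or more, which held 2200 Em-Ex and 1946 YS-Ex cells. *Cpa3* still differed inside this range, at 13007 CPM in Em-Ex against 17404 CPM in YS-Ex, a ratio of 0.747, so the cells were not matched in *Cpa3*. Here all 5 enzymes had a ratio above 1, and that of *Ltc4s* had an interval on both sides of 1. *Alox5ap* was at 791 CPM in Em-Ex against 520.3 CPM in YS-Ex, a ratio of 1.52 (1.49 to 1.55), the one member past 1.5-fold. *Alox5* was at 199 and 150.4 CPM, a ratio of 1.32 (1.27 to 1.38), so that its small deficit over all Em-Ex cells was absent in this range. *Ptgs1* was at 59.5 and 42.5 CPM, a ratio of 1.4 (1.29 to 1.51).

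*Hpgds* was at 112 and 95 CPM, a ratio of 1.18 (1.12 to 1.25), and *Ltc4s* at 18.3 and 17.5 CPM, a ratio of 1.04 (0.914 to 1.19). The log2 ratio of *Hpgds* was 0.24, against 0.04 with the mean of per-cell CPM and 0.01 with 2000 UMIs per cell. Of 8608 genes compared in this range, 8.33% were higher in Em-Ex by 1.5-fold or more and 25.2% lower. The median log2 ratio was 0.40 over the enzymes and -0.07 over all genes. The call for *Alox5ap* lay at the limit, with a log2 ratio of 0.60. It was lost with the mean of per-cell CPM (0.54), totals without the 50 most abundant genes (0.58) and 2000 UMIs per cell (0.50), and the log2 ratio was 0.64 with every barcode and 0.71 among cells with *Cpa3* at 8000 CPM or more.

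The relation to *Cpa3* was described next. Levels in this comparison are per 1000000 UMIs without those of *Cpa3*, so that *Cpa3* itself does not lower the others. In Em-Ex, *Alox5* was at 201 CPM in the 2200 cells with *Cpa3* at 4000 CPM or more and at 6.73 CPM in the 564 cells below 1000 CPM, a ratio of 29.9 (23.8 to 38.1). *Hpgds* was at 114 and 17.2 CPM, a ratio of 6.61 (5.71 to 7.70). *Ltc4s* was at 18.5 and 4.91 CPM, a ratio of 3.77 (2.84 to 5.09). The enzymes that end both branches were thus higher where *Cpa3* was high, though less steeply than *Alox5*.

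*Alox5ap* was at 801 and 234 CPM, a ratio of 3.42 (3.28 to 3.57), and was still detected in 87.2% of the Em-Ex cells below 1000 CPM, against 9.57% for *Alox5*. *Ptgs1* was at 60.2 and 54.0 CPM, a ratio of 1.12 (1.01 to 1.23). Hence 4 of 5 enzymes were past 2-fold in Em-Ex, where 11.3% of 9175 genes were higher by that fold and 20.9% lower. Of the Em-Ex cells below 1000 CPM, 462 of 564 belonged to cluster 6, which was led by the neutrophil granule genes *Mpo* and *Prtn3*. Without the cells of cluster 6, *Alox5* and *Hpgds* were still past 2-fold in Em-Ex, with log2 ratios of 3.01 and 1.18, whereas *Alox5ap* (1.0, just under the limit) and *Ltc4s* (0.72) were not, and *Ptgs1* was at -0.12.

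In YS-Ex only 50 cells were below 1000 CPM. *Alox5* was at 153 CPM in the upper and 41.0 CPM in the lower range, a ratio of 3.73 (2.61 to 5.54), and *Hpgds* at 96.7 and 43.8 CPM, a ratio of 2.21 (1.56 to 3.24). *Ltc4s* was at 17.9 and 1.37 CPM, the latter from 1 UMI, a ratio of 13.1 with a wide interval (2.33 to 517). *Alox5ap* differed less, at 529 and 404 CPM, a ratio of 1.31 (1.17 to 1.48). So 3 of 5 enzymes were past 2-fold in this library as well, where 9.84% of 9309 genes were higher by that fold and 17.2% lower. The call for *Hpgds* in YS-Ex, with a log2 ratio of 1.14, was lost with every barcode (0.99), the mean of per-cell CPM (0.62), 1 limit at 2000 CPM (0.58), 2000 UMIs per cell (0.91) and without the cells of cluster 6 (0.61).

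*Ptgs1* was lower in the upper range in YS-Ex, at 43.3 against 82.1 CPM, a ratio of 0.528 (0.407 to 0.696). The lower range of YS-Ex had another makeup than that of Em-Ex. It held 15 cells of cluster 6, 14 of cluster 10, led by *S100a9* and *S100a8*, and 9 of cluster 8. The log2 ratio of *Ptgs1* was 0.18 in YS-Ex and 0.28 in Em-Ex without the cells of cluster 10, and -1.12 in YS-Ex and -0.12 in Em-Ex without those of cluster 6. Cluster 10 was singled out after its high *Ptgs1* (168 CPM) had been seen, and its part in the difference between the libraries was not tested. Of the YS-Ex cells below 1000 CPM, 7 carried a barcode that occurred in both libraries. Without the shared barcodes the log2 ratio of *Ptgs1* was -0.98.

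**Figure D2:**
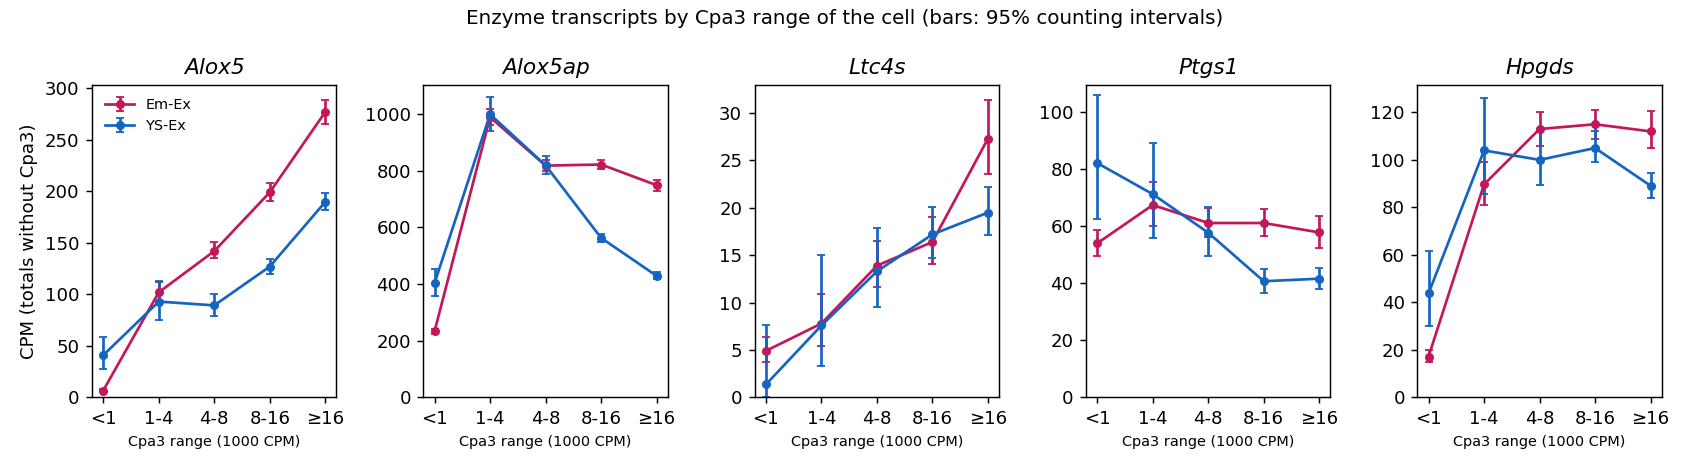
Level of each enzyme (CPM of totals without *Cpa3*) in 5 ranges of unequal width of the cell's *Cpa3* level (axis labels in units of 1000 CPM), for Em-Ex (magenta) and YS-Ex (blue), with 95% counting intervals and lines that join ranges of 1 library. *Alox5* goes from 6.73 to 277 CPM in Em-Ex, whereas *Alox5ap* peaks at 989 and 999 CPM in the range of 1000 to 4000 CPM and is at 429 CPM in the highest YS-Ex range.

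Across finer *Cpa3* ranges the enzymes parted. These are ranges of a per-cell value and not cell types, and 307 Em-Ex and 91 YS-Ex cells lay between 1000 and 4000 CPM. From 1000 to 4000 CPM upward, *Alox5* was at 102, 142, 199 and 277 CPM in the Em-Ex ranges of 1000 to 4000, 4000 to 8000, 8000 to 16000 and 16000 CPM or more, and at 93.0, 89.3, 127 and 189.7 CPM in those of YS-Ex. It was higher at each step but the first in YS-Ex, where the intervals of 93.0 CPM (75.5 to 113) and 89.3 CPM (79.2 to 100.3) overlapped. *Alox5ap* had its highest level between 1000 and 4000 CPM in both libraries, at 989 CPM in Em-Ex against 999 CPM in YS-Ex. In the 3 higher ranges it was at 818, 822 and 749 CPM in Em-Ex and at 819, 563 and 429 CPM in YS-Ex. The 2 genes whose products act together in leukotriene synthesis therefore ran in opposite directions over the YS-Ex ranges from 4000 CPM upward, and the libraries had nearly the same *Alox5ap* level in the range of 4000 to 8000 CPM.

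*Ltc4s* was at 13.9, 16.4 and 27.3 CPM in these ranges in Em-Ex and at 13.3, 17.2 and 19.5 CPM in YS-Ex. *Ptgs1* was at 61.1, 61.1 and 57.8 CPM in Em-Ex and at 57.7, 40.7 and 41.6 CPM in YS-Ex. *Hpgds* was at 113, 115 and 112 CPM in Em-Ex and at 100.0, 105 and 89.1 CPM in YS-Ex. For *Ltc4s*, the highest Em-Ex range (23.6 to 31.4) lay above the range below it (14.1 to 19.0), whereas its YS-Ex intervals overlapped from step to step. With 2000 UMIs per cell, the shares of cells with a UMI of *Ltc4s* were 4.45%, 4.35% and 5.04% in Em-Ex and 4.17%, 3.62% and 3.54% in YS-Ex, with overlapping intervals in both. The Em-Ex levels of *Ptgs1* and *Hpgds* overlapped within counting error from 4000 CPM upward.

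The Spearman correlation with *Cpa3* over single cells was highest for *Alox5* in both libraries. In Em-Ex (n = 3071 cells), rho was 0.52 for *Alox5*, 0.22 for *Hpgds*, 0.19 for *Alox5ap*, 0.14 for *Ltc4s* and -0.05 for *Ptgs1*. In YS-Ex (n = 2087 cells), rho was 0.28 for *Alox5*, 0.08 for *Ltc4s*, -0.01 for *Hpgds*, -0.05 for *Ptgs1* and -0.21 for *Alox5ap*. A rho of 0.2 or more was found for 2 enzymes in Em-Ex, where 4.54% of 8364 genes reached it, and for 1 in YS-Ex, where 1.22% of 8518 genes did. With 2000 UMIs per cell, the rho of *Alox5* fell to 0.33 in Em-Ex and 0.21 in YS-Ex, and in Em-Ex *Hpgds* no longer reached 0.2 (0.14) while *Alox5ap* did (0.24). Cells of 1 library share their depth with both values, and the UMIs of a cell had a rho of -0.35 to *Cpa3* in Em-Ex and 0.03 in YS-Ex.

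Inside the range of 4000 CPM or more, *Alox5* kept a rho of 0.27 in Em-Ex and 0.25 in YS-Ex, which placed it above 99.6% and 99.7% of the genes compared. *Alox5ap* was at -0.09 for Em-Ex cells and -0.21 for YS-Ex cells, the latter above 0.392% of genes. For *Hpgds* rho was -0.01 and -0.02, so that its relation to *Cpa3* in Em-Ex was a contrast between high and low cells. Among the enzymes themselves, *Alox5ap* and *Ptgs1* had the highest rho of the 10 pairs in both libraries, 0.26 and 0.30, and *Alox5* and *Alox5ap* the lowest, -0.17 and -0.11. *Alox5ap* and *Hpgds* had a rho of 0.29 in YS-Ex and -0.04 in Em-Ex.

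The 3 leukotriene enzymes were detected together in 10.7% of Em-Ex cells (9.61 to 11.8) and 11.8% of YS-Ex cells (10.5 to 13.3), against 8.68% and 9.45% from the product of their shares. *Ptgs1* and *Hpgds* were detected together in 22.6% of Em-Ex cells (product 22.4%) and 19.3% of YS-Ex cells (product 16.9%). All 5 were found in 3.42% and 4.74% of cells and none of the 5 in 1.43% and 3.26%. Joint detection depends on a cell's depth, and with 2000 UMIs per cell the 3 leukotriene enzymes were found together in 0.782% of Em-Ex cells (0.501 to 1.16, product 0.493%) and 0.575% of YS-Ex cells (0.297 to 1.0, product 0.422%), so that the YS-Ex interval then included its product. Among cells with *Cpa3* at 4000 CPM or more, all UMIs gave 13.9% in Em-Ex (12.5 to 15.4, product 12.5%) and 12.3% in YS-Ex (10.9 to 13.9, product 10.2%). With 2000 UMIs per cell, these were 1.05% (0.664 to 1.56, product 0.906%) and 0.617% (0.319 to 1.07, product 0.457%), and both intervals included the product.

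To describe the enzymes by kind of cell, the cells were clustered without the 5 enzymes, *Cpa3* and the lists used here, which gave 13 clusters numbered by size. The 11 mast cell markers summed to between 24905 and 69788 CPM in clusters 1 to 5 and 7 to 9, against 673 CPM in cluster 6, 2129 CPM in cluster 10, 711 CPM in cluster 11, 1311 CPM in cluster 12 and 14241 CPM in cluster 13. All 11 had UMIs in each of clusters 1 to 5 and 7 to 9, as they also had in clusters 6 and 13, and the clusters are called below by number and leading genes. Cluster 12 was erythroid-like, with 7 of 7 erythroid markers at 3-fold or more. Cluster 10 had high levels of 9 of 9 macrophage markers but was led by *S100a9* and *S100a8*, and was left without a name. Cluster 11 was led by *Actc1*, *Sparc* and *Dcn*.

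Levels by cluster are given first over both libraries together, and the libraries did not share every rank. *Alox5* was at 249.7 CPM (235 to 265) in cluster 4, led by the mucosal mast cell proteases *Mcpt1* and *Mcpt2* (349 Em-Ex and 179 YS-Ex cells), apart from cluster 2 with 183 CPM (174 to 192). In order, clusters 2, 1, 3, 8, 5 and 7 lay between 183 and 151 CPM, each overlapping its neighbour. That lead of cluster 4 was present in Em-Ex, at 299.9 CPM (281 to 320.3) against 217 CPM in cluster 2, and not in YS-Ex, where clusters 2, 1 and 4 were at 170.2, 164 and 157 CPM with overlapping intervals.

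Cluster 9, led by *Calca* and *Tnfrsf9*, had the lowest *Alox5* of the clusters with high *Cpa3* in both libraries, with 95.5 CPM among Em-Ex cells against 72.3 CPM among YS-Ex cells. Over both libraries it was at 82.2 CPM (70.1 to 95.8), followed by cluster 13 at 67.9 CPM, cluster 10 at 23.8 CPM and cluster 12 at 16.4 CPM. Cluster 6 was at 4.17 CPM (2.99 to 5.66).

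*Alox5ap* was spread more widely over the same clusters. Among the 8 clusters with high *Cpa3*, it was highest in Em-Ex in cluster 9 at 1878 CPM (1786 to 1972), followed by cluster 4 at 1589.9 CPM, cluster 1, led by *Mrgprb2* and *Mrgprb1*, at 1280.0 CPM and cluster 2, led by *Layn* and *Ccr2*, at 1051 CPM. Cluster 3, led by *Hapln1*, and cluster 8, led by the mitosis genes *Aspm* and *Mki67*, were at 679.9 and 679 CPM. Cluster 7, led by *Car1* and *Cd3g*, was at 458 CPM and cluster 5, led by the replication genes *Rrm2* and *Ccne2*, was lowest of these 8 at 338 CPM (324 to 351).

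In YS-Ex, *Alox5ap* was highest of these 8 in cluster 4 at 1649.8 CPM (1588 to 1714), followed by clusters 9, 1, 3 and 5 at 1166, 871, 562 and 423 CPM. Clusters 2 and 8 were lower at 321 and 258 CPM, and cluster 7 was lowest at 119.7 CPM (109.9 to 130.2). Clusters 4, 9 and 1 were thus the top 3 of the 8 in both libraries, while cluster 2 lay above cluster 3 in Em-Ex and below it in YS-Ex. In cluster 6, which was nearly all Em-Ex, *Alox5ap* was at 209 CPM (199.7 to 218).

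*Ltc4s* had its highest level in cluster 4 in both libraries, at 38.0 CPM (31.4 to 45.7) in Em-Ex and 32.3 CPM (24.1 to 42.3) in YS-Ex. Among the clusters with high *Cpa3*, its interval overlapped those of clusters 1, 3 and 5 in YS-Ex and none in Em-Ex, where it overlapped that of cluster 10. Over both libraries it was at 26.2 CPM in cluster 1, 18.8 CPM in cluster 3, 7.87 CPM (5.96 to 10.2) in cluster 7 and 3.86 CPM (2.73 to 5.30) in cluster 6. *Ptgs1* had another order. Over both libraries it was highest in cluster 10 at 168 CPM (141 to 198), followed by cluster 4 at 107 CPM (97.7 to 117), cluster 9 at 76.2 CPM and cluster 1 at 70.7 CPM. In cluster 6 it was at 52.3 CPM (47.9 to 57.0), like cluster 3 with 53.8 CPM. Its lowest levels in clusters with high *Cpa3* were, in Em-Ex, those of cluster 5 (43.3 CPM) and cluster 7 (46.3 CPM), with overlapping intervals. In YS-Ex they were those of cluster 7 (15.5 CPM) and cluster 2 (25.1 CPM).

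*Hpgds* was at 150.1 CPM (141 to 159) in cluster 3 in Em-Ex, above every other cluster there, and at 174, 172, 163 and 152 CPM in clusters 3, 4, 5 and 1 in YS-Ex, each overlapping its neighbour. Cluster 2 was lower, with 58.1 CPM in Em-Ex against 46.3 CPM in YS-Ex. Cluster 7 was the lowest of the clusters with high *Cpa3*, with 41.4 CPM in Em-Ex against 23.8 CPM in YS-Ex. In YS-Ex cluster 8 was at 44.9 CPM, its interval overlapping that of cluster 2. Cluster 6 was at 11.9 CPM (9.84 to 14.3). Clusters 2 and 7 made up 24.3% and 12.7% of YS-Ex cells and 7.52% and 6.02% of Em-Ex cells.

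Free RNA in droplets can give a UMI in a cell that does not make the transcript, and clusters 11 and 12 were taken as cells that should lack the enzymes. In the 25 cells of cluster 12 (median 22250 UMIs), *Alox5* had a UMI in 36.0% of cells, *Alox5ap* in 40.0% and *Ltc4s*, from 2 cells, in 8.0%. *Ptgs1* and *Hpgds* had a UMI in 0 of 25, which allows a share of up to 12.0% by a limit of 3 counts and 13.7% by the exact Clopper-Pearson bound. In the 27 shallower cells of cluster 11 (median 6357 UMIs), *Alox5* and *Ltc4s* had none, which allows a share of up to 11.1% and 12.8% by the same limits, while *Alox5ap* and *Hpgds* were each found in 11.1% of cells and *Ptgs1* in 7.41%. The 2 clusters thus gave different backgrounds.

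In the 482 cells of cluster 6 (median 20548 UMIs), the shares were 6.85% for *Alox5*, 7.88% for *Ltc4s* and 20.5% for *Hpgds*. Expression of *Alox5* and *Ltc4s* in cluster 6 was not read from them, since their shares were below those of cluster 12. For *Hpgds* the answer depended on the background. Its 11.9 CPM (9.84 to 14.3) lay above cluster 12, which was of similar depth and at 0 CPM (up to 6.74), and inside the wide interval of the shallower cluster 11 (2.89 to 41.0). With *Alox5* at 16.4 CPM in cluster 12 against 4.17 CPM in cluster 6, cluster 12 is itself not a clean background for that gene. *Alox5ap* and *Ptgs1* were at 209 and 52.3 CPM in cluster 6, against 43.8 and 0 CPM in cluster 12 and 14 and 18.7 CPM in cluster 11.

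**Figure D3:**
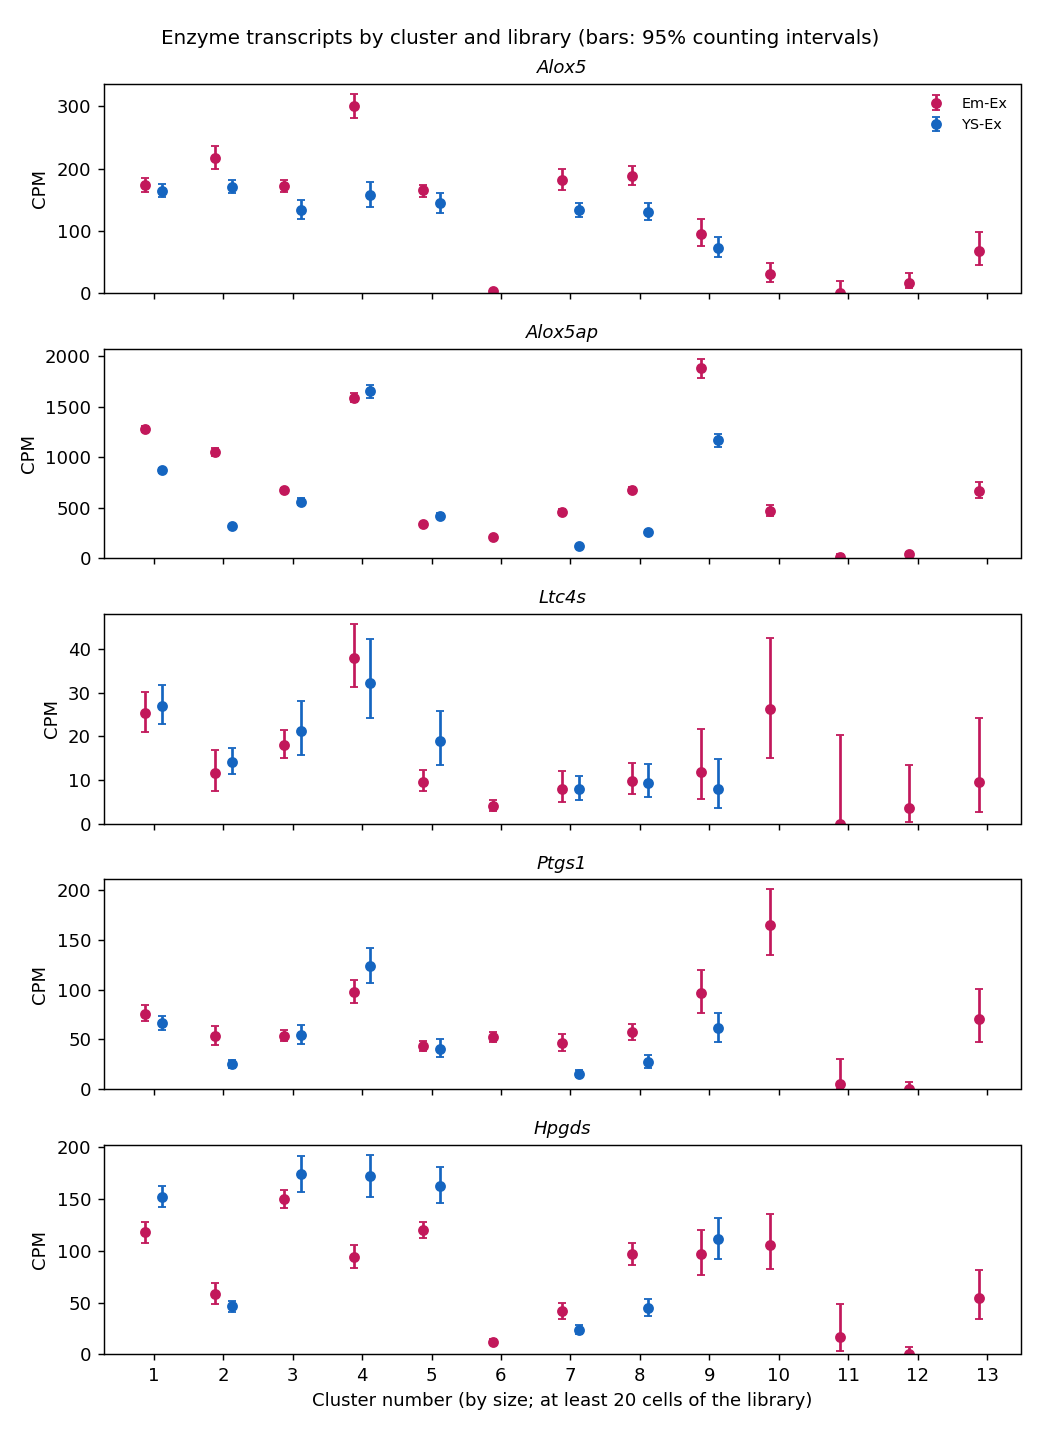
Level of each enzyme (CPM) by cluster in Em-Ex (magenta) and YS-Ex (blue), for groups of at least 20 cells of a library, with 95% counting intervals. In Em-Ex, *Alox5* is at 299.9 CPM in cluster 4 and between 165 and 217 CPM in clusters 1 to 3, 5, 7 and 8, whereas *Alox5ap* is at 1589.9 and 1649.8 CPM in cluster 4 and at 458 and 119.7 CPM in cluster 7.

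The library comparison was then made inside the 8 clusters with at least 20 cells of each library. The *Alox5* ratio of Em-Ex to YS-Ex was above 1 in 8 of 8 clusters, between 1.06 in cluster 1 and 1.91 in cluster 4, with an interval above 1 in 6. These ratios were higher than those of 63.8% to 93.0% of the genes compared in the same cluster. *Alox5ap* had an interval above 1 in 6 clusters and below 1 in 1. Its level in cluster 7 was 458 CPM in Em-Ex against 119.7 CPM in YS-Ex, a ratio of 3.82. In cluster 2 it was at 1051 and 321 CPM, a ratio of 3.27, and in cluster 8 at 679 and 258 CPM, a ratio of 2.63. These 3 ratios were higher than those of 99.4%, 99.4% and 98.6% of the genes compared there. In cluster 4, by contrast, *Alox5ap* was at 1589.9 and 1649.8 CPM, a ratio of 0.964, and in cluster 5 at 338 and 423 CPM, a ratio of 0.798, which were higher than 50% and 34.9% of genes. In clusters 1, 3 and 9 its ratios of 1.47, 1.21 and 1.61 were higher than 92.2%, 76.8% and 89.9%.

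*Ptgs1* had its highest ratios in the same 3 clusters, at 2.99 in cluster 7 (46.3 and 15.5 CPM), 2.13 in cluster 2 (53.4 and 25.1 CPM) and 2.09 in cluster 8 (57.0 and 27.3 CPM). In cluster 4 it was lower in Em-Ex, at 98.0 and 124 CPM, a ratio of 0.793. Over the 8 clusters its ratios were higher than those of 36.2% to 99.0% of genes, and those of *Hpgds* than 17.7% to 97.9%. *Hpgds* went both ways, with an interval above 1 in 3 clusters and below 1 in 4. It was at 96.9 and 44.9 CPM in cluster 8, a ratio of 2.16, and at 93.9 and 172 CPM in cluster 4, a ratio of 0.546. The near-equal *Hpgds* of the whole libraries thus covered clusters in which it was higher and clusters in which it was lower. For *Ltc4s*, the interval included 1 in all but cluster 5, where it was at 9.65 CPM in Em-Ex against 18.9 CPM in YS-Ex. That ratio was 0.511 (0.341 to 0.774), higher than 11.7% of the genes compared there. *Cpa3* also differed inside clusters. It was lower in Em-Ex in clusters 2 (13154 against 19389 CPM), 7 (9546 against 15368 CPM) and 8 (7324 against 10194 CPM). The same held in cluster 5 (8349 against 12588 CPM), where the *Alox5ap* ratio was below 1, while cluster 4 was nearly equal (12981 and 12740.2 CPM). Whether *Cpa3* bore on these ratios, or the cells of 1 cluster were alike in both libraries in other respects, was not tested.

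**Figure D4:**
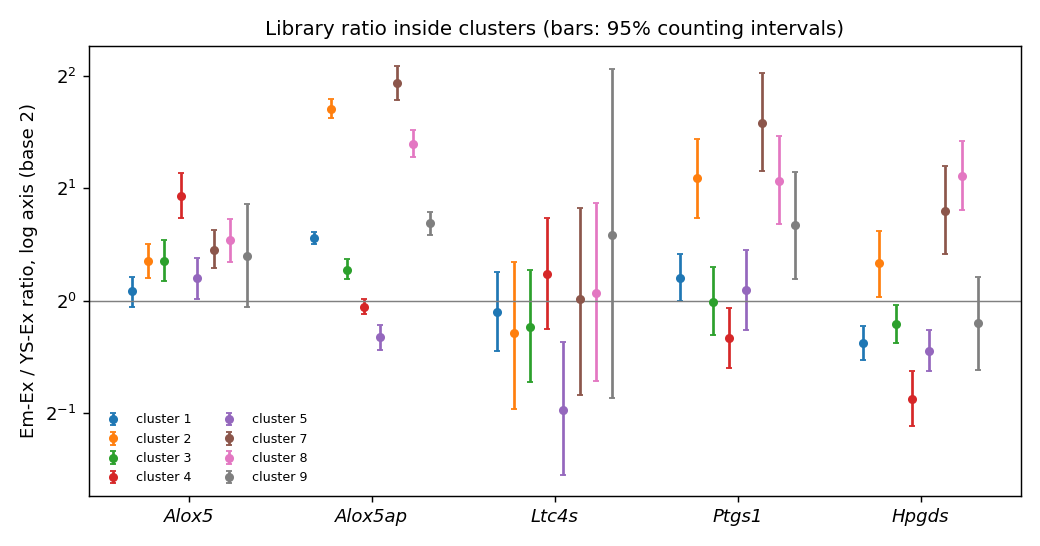
Ratio of Em-Ex to YS-Ex level (log axis, base 2) for each enzyme inside the 8 clusters with at least 20 cells of each library, with 95% counting intervals; the grey line marks equal levels. *Alox5* lies above 1 in 8 of 8 clusters, *Alox5ap* between 0.798 and 3.82 and *Hpgds* between 0.546 and 2.16.

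The genes whose levels ran most like each enzyme were taken over 21 groups of cells (a cluster in a library), by Pearson r of log2(CPM + 1), as a description among 7227 genes. For *Alox5* these were *Prkcb*, *1810011H11Rik* and *Slc45a3*, each with r of 0.97, against 0.92 for *Cpa3*. For *Alox5ap* they were *Fxyd5* (0.94), *Cfp* (0.92) and *Cd244* (0.91), and for *Ltc4s* *0610012G03Rik* (0.90), *Ppm1h* (0.89) and *Tmem104* (0.88). *Ptgs1* ran most like *Cd52* (0.95), *Ncf4* (0.94) and *Arl11* (0.92), with 0.50 for *Cpa3*, and *Hpgds* most like *Tmcc3* (0.91), *Sptlc2* (0.90) and *S100a6* (0.90). The nearest genes of *Ptgs1* include *Ncf4*, a subunit of the phagocyte NADPH oxidase, and no gene was shared between these 5 sets of 3.

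The other genes of the pathway were described from 4 lists, compared over all cells between Em-Ex and YS-Ex where they had UMIs in both libraries and at least 5 CPM in 1, against the same 15.8% higher and 22.9% lower of all genes. Among cells with *Cpa3* at 4000 CPM or more, the shares of all genes to set beside the lists are the 8.33% and 25.2% given above. Of the arachidonate release list, 10 of 17 genes were in the table and 7 were compared, of which 0 were higher and 1 lower by 1.5-fold or more. That gene was *Acsl4*, which activates arachidonate for storage in phospholipids, at 16.5 CPM in Em-Ex against 36.3 CPM in YS-Ex, a ratio of 0.454 (0.411 to 0.501). It was also the 1 gene of the 7 past the limit among cells with *Cpa3* at 4000 CPM or more, with a ratio of 0.520. The cytosolic phospholipase A2 gene *Pla2g4a*, which releases arachidonate, was at 16.1 and 19.6 CPM. *Pla2g12a* was at 21.7 and 19.4 CPM, *Pla2g15* at 15.4 and 17.9 CPM and *Pla2g7*, which breaks down platelet-activating factor, at 93.4 and 109 CPM. The reacylating enzymes *Lpcat2* and *Lpcat3* were at 146 and 182 CPM and at 159 and 151 CPM. Among cells with *Cpa3* at 4000 CPM or more, directions turned for *Pla2g12a*, from a ratio of 1.12 over all cells to 0.670 (0.580 to 0.772), and for *Pla2g7*, from 0.859 to 1.20 (1.14 to 1.26). *Lpcat2* went from 0.801 to 1.03 (0.990 to 1.07).

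Of the leukotriene and lipoxygenase list, 10 of 19 genes were in the table and 9 were compared, of which 2 were higher in Em-Ex and 2 lower. *Mgst1*, a microsomal glutathione transferase, was at 9.89 CPM in Em-Ex against 3.40 CPM in YS-Ex, a ratio of 2.91 (2.32 to 3.68), and *Cotl1*, whose product binds 5-lipoxygenase, at 494 and 294 CPM, a ratio of 1.68 (1.64 to 1.73). In Em-Ex, *Mgst1* was at 35.3 CPM below 1000 CPM of *Cpa3* and at 0.703 CPM in the upper range, so that it ran opposite to *Ltc4s*. Lower in Em-Ex were *Abcc1*, which exports leukotriene C4, at 20.8 and 36.3 CPM (ratio 0.574), and *Alox8* at 3.70 and 6.33 CPM (ratio 0.584). *Lta4h*, which directs leukotriene A4 to leukotriene B4 instead, was at 40.1 and 30.1 CPM, a ratio of 1.33. *Mgst2* was at 14 and 9.36 CPM, just under the limit, *Mgst3* at 44.6 and 33.0 CPM, and the peroxidases *Gpx1* and *Gpx4* at 753 and 583 CPM and at 965 and 963 CPM. Among cells with *Cpa3* at 4000 CPM or more, 8 genes were compared, and *Cotl1* (1.96) and *Abcc1* (0.573) were past the limit. In that range *Mgst2* turned round, at 6.76 and 9.27 CPM, a ratio of 0.729 (0.598 to 0.888), *Alox8* was at a ratio of 0.802, and *Mgst1* was below 5 CPM in both, at 0.694 and 0.475 CPM.

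Of the prostaglandin list, 11 of 17 genes were in the table and 9 were compared, of which 1 was higher and 2 were lower. The inducible cyclooxygenase gene *Ptgs2* was low in both, at 3.20 CPM in Em-Ex against 5.81 CPM in YS-Ex, a ratio of 0.552 (0.436 to 0.698). *Ptges2*, a prostaglandin E synthase gene, was at 14.2 and 7.88 CPM, a ratio of 1.80 (1.54 to 2.11), and *Zadh2*, a prostaglandin reductase gene, at 7.04 and 12.1 CPM, a ratio of 0.584. *Ptges3* was at 163 and 109.7 CPM, *Tbxas1*, the thromboxane synthase gene, at 7.39 and 5.55 CPM, *Cbr1* at 40.8 and 29.7 CPM and *Akr1b3* at 133 and 92.9 CPM. The reductases *Ptgr1* and *Ptgr2* were at 35.0 and 35.6 CPM and at 25.2 and 28.1 CPM. Among cells with *Cpa3* at 4000 CPM or more, *Ptges2* (1.76) and *Cbr1* (1.52) were higher and *Ptgs2* (0.595) and *Zadh2* (0.635) lower by 1.5-fold or more.

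Of the eicosanoid receptor list, 9 of 17 genes were in the table and 4 were compared, with 0 past 1.5-fold in either direction. The leukotriene B4 receptor gene *Ltb4r1* was at 25.7 CPM in Em-Ex against 23.3 CPM in YS-Ex, and the cysteinyl leukotriene receptor gene *Cysltr1* at 4.40 and 6.10 CPM. The prostaglandin E receptor gene *Ptger3* was at 56.2 and 53.8 CPM and the prostacyclin receptor gene *Ptgir* at 12.4 and 12.2 CPM. *Ptger2* was at 5.96 CPM in Em-Ex and listed at 0 in YS-Ex, where the table holds no gene with UMIs in fewer than 30 barcodes, so that it gave no ratio and is not among the 4. Among cells with *Cpa3* at 4000 CPM or more, *Cysltr1* was past the limit, at 2.99 and 5.78 CPM, a ratio of 0.518 (0.390 to 0.683).

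**Figure D5:**
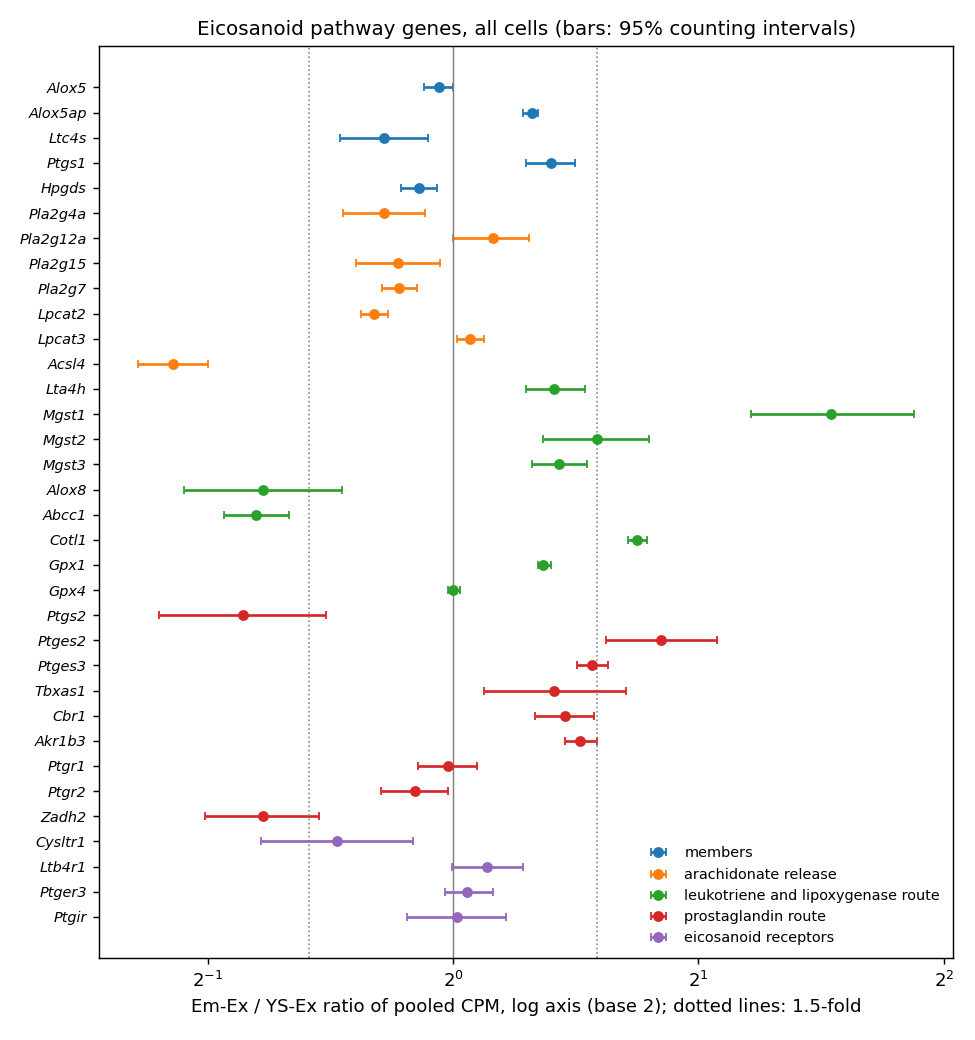
Ratio of Em-Ex to YS-Ex level (log axis, base 2) over all cells for the 5 enzymes (blue) and the genes of the 4 lists with UMIs in both libraries and at least 5 CPM in 1, with 95% counting intervals; dotted lines mark 1.5-fold. The 5 enzymes lie between 0.823 and 1.32, *Mgst1* at 2.91 and *Acsl4* at 0.454.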

How the data were processed

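Sorted CD31+CD45+c-Kit+CD41- cells of each explant kind were measured by single-cell RNA sequencing, as 1 library per condition. The authors deposited raw UMI counts per gene and cell of both libraries in 1 table. The submitters' processing notes name bcl2fastq 2.19.1.403, Cell Ranger 2.0.1 and mm10, which is the GRCm38 assembly used here for positions (GENCODE annotation). The library of each barcode was read from its column name, which left 0 columns without a library. A gene above 0 in a library had UMIs in at least 30 of its barcodes.

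Kept were cells that had from 1000 to 5000 genes and at most 5% of UMIs from 13 mitochondrial genes, which were 87.6% of 3504 Em-Ex and 68.7% of 3037 YS-Ex barcodes. The paper states this filter but gives 3504 and 3037 cells for its plots, so the cells compared here are fewer. UMIs per cell ranged from 4120 to 38114 in Em-Ex and from 3302 to 34107 in YS-Ex. Doublets were not removed. Levels were pooled CPM with exact Poisson 95% intervals, ratios had exact conditional binomial intervals and shares exact Clopper-Pearson intervals, all for counting error only, and a share of 0 is given with the limit that 3 counts set. Genes with UMIs in both groups and at least 5 CPM in 1 were compared, and limits of 1.5-fold between libraries and 2-fold between *Cpa3* ranges were used. For clusters, log values per 10000 UMIs were used, 2000 variable genes were corrected between libraries by mutual nearest neighbors (numpy 2.4.6, 20 neighbors), and leidenalg 0.10.2 was run at resolution 1 on 100 principal components. The ratios, their intervals and the correlation with *Cpa3* were tested on simulated counts, and the other steps were not. Python 3.11.15, scipy 1.17.1, scikit-learn 1.9.0 and matplotlib 3.10.9 were used.

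The 5 enzymes were named in every group of cells, list genes were named with at least 5 CPM in 1 library or past 1.5-fold, and the 3 genes most like each enzyme were named among those with at least 10 CPM in 1 library. *Mgst1* in the *Cpa3* ranges was singled out after its values were seen. The enzymes, lists and ranges were chosen with earlier results of these data known. The alternatives were other cell filters, scalings, *Cpa3* limits, clusterings and thinning to 2000 UMIs per cell, and, chosen after seeing the data, leaving out cluster 6 or cluster 10.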

Additional observations from a re-analysis of the deposited data

Results flagged for a closer look

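The difference between *Cpa3* ranges had opposite directions in the 2 libraries for *Ptgs1*. The log2 ratio of cells with *Cpa3* at 4000 CPM or more to cells below 1000 CPM was 0.16 in Em-Ex and -0.92 in YS-Ex, and this difference between the libraries was not tested, since each is 1 library. The cells below 1000 CPM were 564 in Em-Ex, 33 of them from cluster 10, and 50 in YS-Ex, 14 of them from cluster 10. The values were 0.28 and 0.18 without cluster 10, and -0.12 and -1.12 without cluster 6.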

How the results depend on the processing

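Over all cells, none of the 5 enzymes was past 1.5-fold between the libraries under any alternative run. Of 164 log2 ratios recomputed, 119 moved by less than the counting interval, 39 moved further without a change of direction and 6 reversed. The ratio of Em-Ex to YS-Ex reversed for *Alox5* with the mean of per-cell CPM (0.14) and with 2000 UMIs per cell (0.10), and for *Ltc4s* with 2000 UMIs per cell (0.12). In the *Cpa3* ranges it reversed for *Alox5ap* in YS-Ex with 1 limit at 2000 CPM (-0.11) and for *Ptgs1* without cluster 6 in Em-Ex (-0.12) or without cluster 10 in YS-Ex (0.18). Of 40 values of rho, those that changed sign were, among cells at 4000 CPM or more in Em-Ex, *Hpgds* (0.22 to -0.01) and *Alox5ap* (0.19 to -0.09). *Ptgs1* in Em-Ex went from -0.05 to 0.02 with 2000 UMIs per cell and 0.01 with Pearson r, and *Hpgds* in YS-Ex from -0.01 to 0.01 with Pearson r.

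The count of 1 enzyme past 1.5-fold at high *Cpa3* was 0 with the mean of per-cell CPM, with totals without the 50 most abundant genes and with 2000 UMIs per cell. The count of 4 in the Em-Ex ranges was 2 without cluster 6. The count of 3 in the YS-Ex ranges was 1 with 2000 UMIs per cell, where *Ltc4s* had 0 UMIs in the lower range and gave no ratio and *Hpgds* was below 2-fold (0.91), and 2, without *Hpgds*, with the mean of per-cell CPM and with 1 limit at 2000 CPM. With every barcode kept or without cluster 6 it was 3, with *Ptgs1*, lower in the upper range, in place of *Hpgds*. The count of 2 enzymes with rho of 0.2 or more in Em-Ex was 1 among cells at 4000 CPM or more, 3 with every barcode or Pearson r, and 2 with 2000 UMIs per cell, with *Alox5ap* in place of *Hpgds*. With no correction between libraries, the cluster with the highest level shared its largest group of cells with the original highest cluster for 3 of the 5 enzymes. With 2000 UMIs per cell, the 3 leukotriene enzymes were found together in 0.782% of Em-Ex and 0.575% of YS-Ex cells and *Ptgs1* with *Hpgds* in 1.76% and 2.20%; with every barcode kept, the YS-Ex shares were 10.2% and 16.9%. The causes were not tested. No paired analysis was possible because each condition was 1 library.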
